A study of Mus musculus with 8 samples.

Results

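The genes described here are 48 genes of fatty acid oxidation and of the peroxisome proliferator-activated receptors (PPARs), taken by gene symbol from a table of 55291 genes counted in mouse lumbar spinal cord. All 48 were found in the table, and all 48 were among the 19470 genes that passed a filter on low counts and were tested. The study asked by RNA-seq which transcripts differ in the cord when *Ager*, the gene of the receptor RAGE, is deleted in *Cx3cr1*-expressing cells of mice that model amyotrophic lateral sclerosis. The *Ager*-deleted group was 4 male SOD1G93A *Ager* fl/fl *Cx3cr1* Cre/+ mice with the IDs E1776, E5231, E5248 and E5568. The Cre-expressing control group was 4 male SOD1G93A *Ager* +/+ *Cx3cr1* Cre/+ mice with the IDs E5386, E5642, E6578 and E6732. Every mouse carried the mutant SOD1 transgene and one allele of *Cx3cr1* replaced by a tamoxifen-inducible Cre, and all were given tamoxifen, 5 injections of 0.2 μg at 12 weeks of age according to the labels, while the study's text gives a slightly later age. No mouse without the transgene or without Cre is compared here. The labels give an age of 120 days at sacrifice, whereas the study's text places the RNA-seq at the humane endpoint. Cre acts in *Cx3cr1*-expressing cells only, while RNA came from all cells of the cord, so a lower count of a gene can mean fewer cells of a type or less RNA per cell, and these cannot be told apart.

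Fatty acids enter cells with the help of *Cd36*, are activated to acyl-CoA by the *Acsl* synthetases, cross the mitochondrial membranes as acylcarnitines through the *Cpt1* and *Cpt2* shuttle, and are shortened in the spiral of β-oxidation, whose electrons pass through ETF to the respiratory chain. PPARs are nuclear receptors that bind fatty acids and, paired with RXR, switch on many of these genes. In the central nervous system this pathway is active mainly in astrocytes, while skeletal muscle, brown fat and liver carry it at far higher capacity.

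Library totals ran from 31148047 to 40324897 counts, at which 3 counts equal 0.0744 to 0.0963 CPM, where CPM is a gene's count relative to the library total. The lowest count of any of the 48 genes in any mouse was 7, for *Cpt1b*. Values per mouse below are CPM after TMM scaling, which sets libraries level by most of their genes, and fold changes are Cre control over *Ager*-deleted. *Ager* itself was at 0.889, 1.51, 1.02 and 1.34 CPM in *Ager*-deleted mice against 1.53, 2.22, 2.18 and 2.41 CPM in Cre controls, in the order of mice given above, with no overlap (two-sided p = 0.0286 by exact permutation of the genotypes, the lowest possible with 4 against 4 mice). Summed over a list of 41 skeletal muscle genes, controls E5386 and E5642 reached 1798 and 2648 CPM while the other 6 mice lay between 261 and 278 CPM. These controls are called the muscle-gene-rich mice below. Control E5386 also had the highest sum over 12 adipocyte genes, 295 CPM against 40.1 to 91.4 CPM in the other mice, and over 8 brown adipocyte genes, 109 CPM against 14.8 to 23.4 CPM. *Ucp1*, the uncoupling protein that defines brown fat, was at 42.2 CPM in E5386 and at 0.0508 to 0.216 CPM elsewhere. Control E6732 was highest for 17 of 18 liver genes, with *Alb*, the gene of serum albumin, at 452 CPM there and at 0.0618 to 0.762 CPM elsewhere. The markers of cord cells were at high levels in every mouse, with summed CPM of 3994 to 5215 for 10 neuronal, 22200 to 24837 for 10 oligodendrocyte and 13714 to 19290 for 10 astrocyte genes. Those of 10 microglial genes were 1491 to 2686 CPM, of 10 endothelial genes 281 to 407 CPM, of 7 erythroid genes 75.3 to 434 CPM and of 8 Schwann cell genes 254 to 1135 CPM, lowest in E5386. In each list 0 genes were at 0 counts in all mice. What part any of these sources has in the results was not tested.

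Per length of transcript the lipid-making desaturases led the 48 genes and the oxidation genes were lower. *Scd2*, the stearoyl-CoA desaturase of brain, had 540 CPM per kb of exon (mean of 8 mice), followed by *Scd1* at 92.3, *Fads2* at 73.0, the radial glia and astrocyte fatty acid binding protein gene *Fabp7* at 71.7 and the acyl-CoA synthetase gene *Acsl3* at 52.3 CPM per kb. *Acadl*, the long-chain acyl-CoA dehydrogenase, was the highest of the mitochondrial spiral at 44.0 CPM per kb. The receptors *Ppara* and *Pparg*, at 0.951 and 0.666 CPM per kb, lay below *Ppard* at 5.48, and the muscle isoform *Cpt1b* was lowest of all at 0.123 CPM per kb, below *Cpt1a* at 11.5 and *Cpt1c* at 9.77. In this order 4 of 47 neighbouring pairs were apart in every mouse, namely *Scd2* over *Scd1*, *Acadl* over *Acsl6*, *Ehhadh* over *Ppara* and *Pparg* over *Cpt1b*, and the other neighbours overlap in their ranges over mice. Of the 48 genes, 19 share exon bases with another gene, 5 of them on the same strand. For *Cpt1b* these are 2744 of its 3372 exon bases, shared with the read-through gene *Gm44502*, which had 0 counts in every mouse, and how shared reads were assigned is not given, so its level is uncertain.

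**Figure D1:**
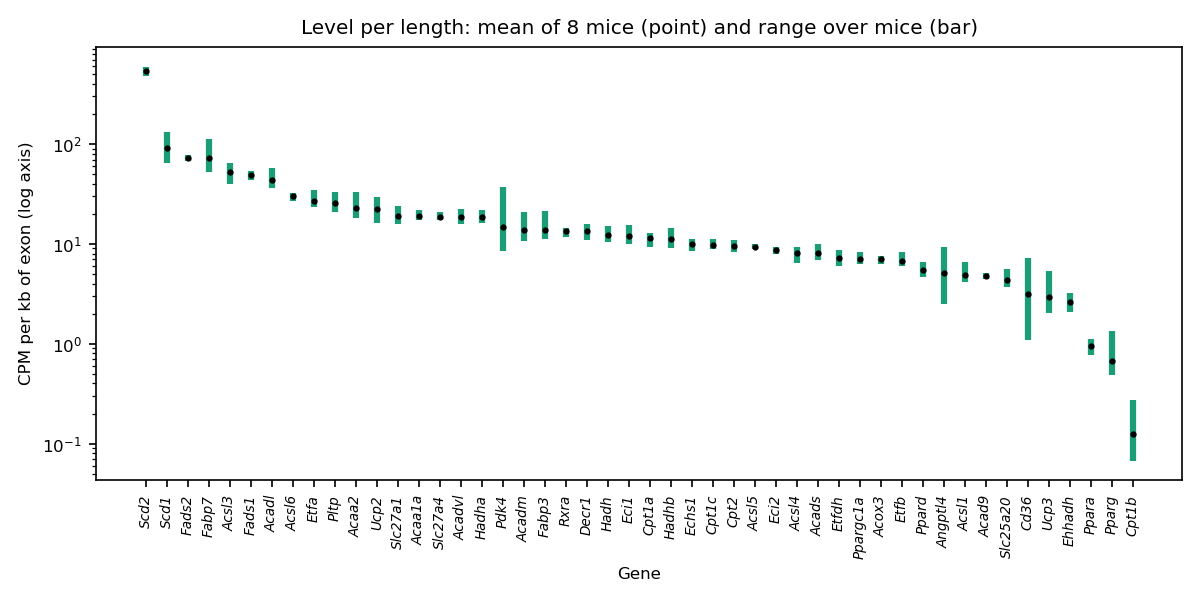
Level of the 48 genes as CPM per kb of merged exon (log axis), genes ordered by their mean. Points are means of 8 mice and bars span the lowest to the highest mouse; *Scd2* stands at 540 and *Cpt1b* at 0.123 CPM per kb.

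The largest differences between the genotypes were higher levels in controls of *Cd36*, which takes up fatty acids, *Pdk4*, which spares glucose when fat is burned, and *Cpt1b* and *Pparg*, at log2 fold changes of 1.33, 0.77, 0.63 and 0.54, and the most even ones were in *Acsl1* and *Scd1*, at 0.39 and 0.42. None of the 48 genes passed an adjusted p under 0.05 in edgeR's exact test. Over all genes that test called 12 genes higher in controls (0.0616%) and 2 lower (0.0103%). With common and tagwise dispersions in the exact test, which called 0.385% of all genes as higher in controls, 1 of the 48 passed, *Cd36*. DESeq2 called 0.118% of all genes as higher and also 1 of the 48, *Acsl1*. The quasi-likelihood test of edgeR called 0 of the 48 and 1 gene in all (0.00514%), which was lower in controls. At an unadjusted p under 0.05, 7 of the 48 passed the exact test, 6 higher and 1 lower in controls, against 4.26% of all genes tested, and 8 passed the quasi-likelihood test, against 6.71% of all genes.

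By sign the genes leaned towards the controls. The log2 fold change was above 0 for 36 and below 0 for 12 of the 48 genes (75% higher), with a median of 0.08, against 48.01% and a median of -0.01 over all 19470 genes. Values ran from -0.28 for *Fabp7* to 1.33 for *Cd36*, and 31 of 48 (64.6%) lay within 0.2 of 0, against 79.3% of all genes. This lean was gone without both muscle-gene-rich mice, but it remained without either one alone. Without controls E5386 and E5642, 19 of the 48 genes were above 0 and 29 below, with a median of -0.01, against 48.5% of all genes above 0. With the muscle gene score of each mouse as a covariate, 21 of 48 were above 0. The mean log2 level over the muscle genes was 4.72 in E5386, 5.18 in E5642 and 1.36 to 1.69 in the remaining mice. Such a score mostly marks that pair, so the covariate fit comes close to leaving the pair out and is no separate test. Leaving out each mouse in turn gave a median between 0.05 and 0.13, lowest without the *Ager*-deleted mouse E5248 (30 of 48 above 0). The median was 0.065 without E5386 (32 of 48 above 0) and 0.097 without E5642 (37 of 48). Leaving out the pair also leaves out the adipocyte and brown adipocyte genes of E5386, at summed CPM of 295 and 109. What part muscle or fat content has in the lean was not tested.

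**Figure D2:**
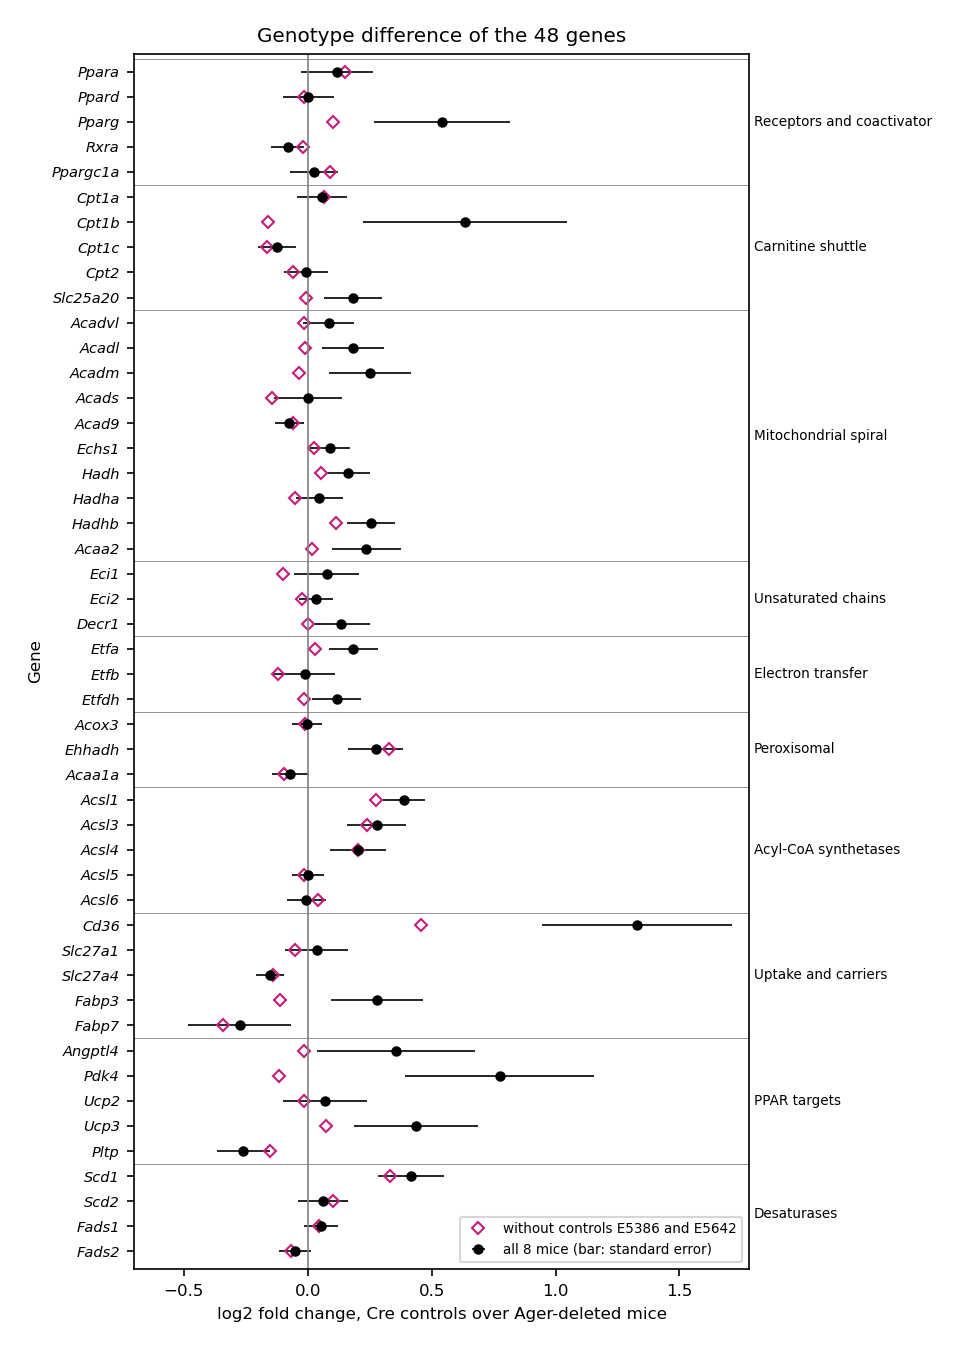
Log2 fold change (Cre control over *Ager*-deleted) of the 48 genes from all 8 mice (filled points, bars the standard error) and from the 6 mice without controls E5386 and E5642 (open diamonds). From all mice 36 of 48 lie above 0, and without the pair 19 of 48 do.

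For the genes to follow the muscle-gene-rich mice, E5386 and E5642 had to be the highest 2 of the 8 mice, which describes the order and is no test. This held for 15 of the 48 genes, against 3.08% of all genes tested. They were *Cd36*, *Pdk4*, *Cpt1b*, *Fabp3*, *Hadhb*, *Etfa*, *Pparg*, *Hadh*, *Slc25a20*, *Acaa2*, *Acsl1*, *Acadl*, *Acadm*, *Etfdh* and *Eci2*. The ratio of the lower of the pair to the highest of the other 6 mice was 2.15 for *Cd36*, 1.35 for *Pdk4*, 1.33 for *Cpt1b* and 1.26 for *Fabp3*, the heart and muscle fatty acid binding protein gene, and between 1.00 and 1.10 for the other 11. Just inside were *Etfdh* and *Eci2* at 1.00, and just outside were *Decr1* at 0.967 and *Echs1* at 0.962. At a ratio of 1.5 or more only *Cd36* was left, against 0.493% of all genes. Of the 36 tested genes of the skeletal muscle list, 33 passed that mark. The pair was named by that same list, so this count is no independent yardstick. The count depended on scaling: with library size alone 7 of the 48 followed, *Cpt1b*, *Hadh*, *Hadhb*, *Etfa*, *Cd36*, *Fabp3* and *Pdk4*, against 1.94% of all genes.

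Of the 48 genes, 40 had less than a 2-fold range over the 8 mice, as did 78.5% of all genes tested, and the 8 with more were *Pparg*, *Cpt1b*, *Cd36*, *Fabp7*, *Angptl4*, *Pdk4*, *Ucp3* and *Scd1*. Within the pair the order differed from that of muscle genes. E5386 was above E5642 for 36 of the 48 genes (75%, against 50.2% of all genes) and was the highest of all 8 mice for 24 (50%, against 9.78% of all genes). Of the 36 skeletal muscle genes, E5386 was above E5642 for 7, and 29 were highest in E5642. The 21 genes of the carnitine shuttle, the mitochondrial spiral, unsaturated chains and electron transfer had 16 highest in E5386 and 16 lowest in the *Ager*-deleted mouse E5248. Over all 48 genes E5248 was lowest for 23 (47.9%), against 18.1% of all genes tested. E5248 was also lowest for 9 of 10 microglial genes, summing to 1491 CPM against 1787 to 2686 CPM in the others. It was lowest for 4 of 10 astrocyte genes, and these 10 summed to 13714 CPM against 15268 to 19290 CPM. The part of these cell markers in the order of mice was not tested.

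**Figure D3:**
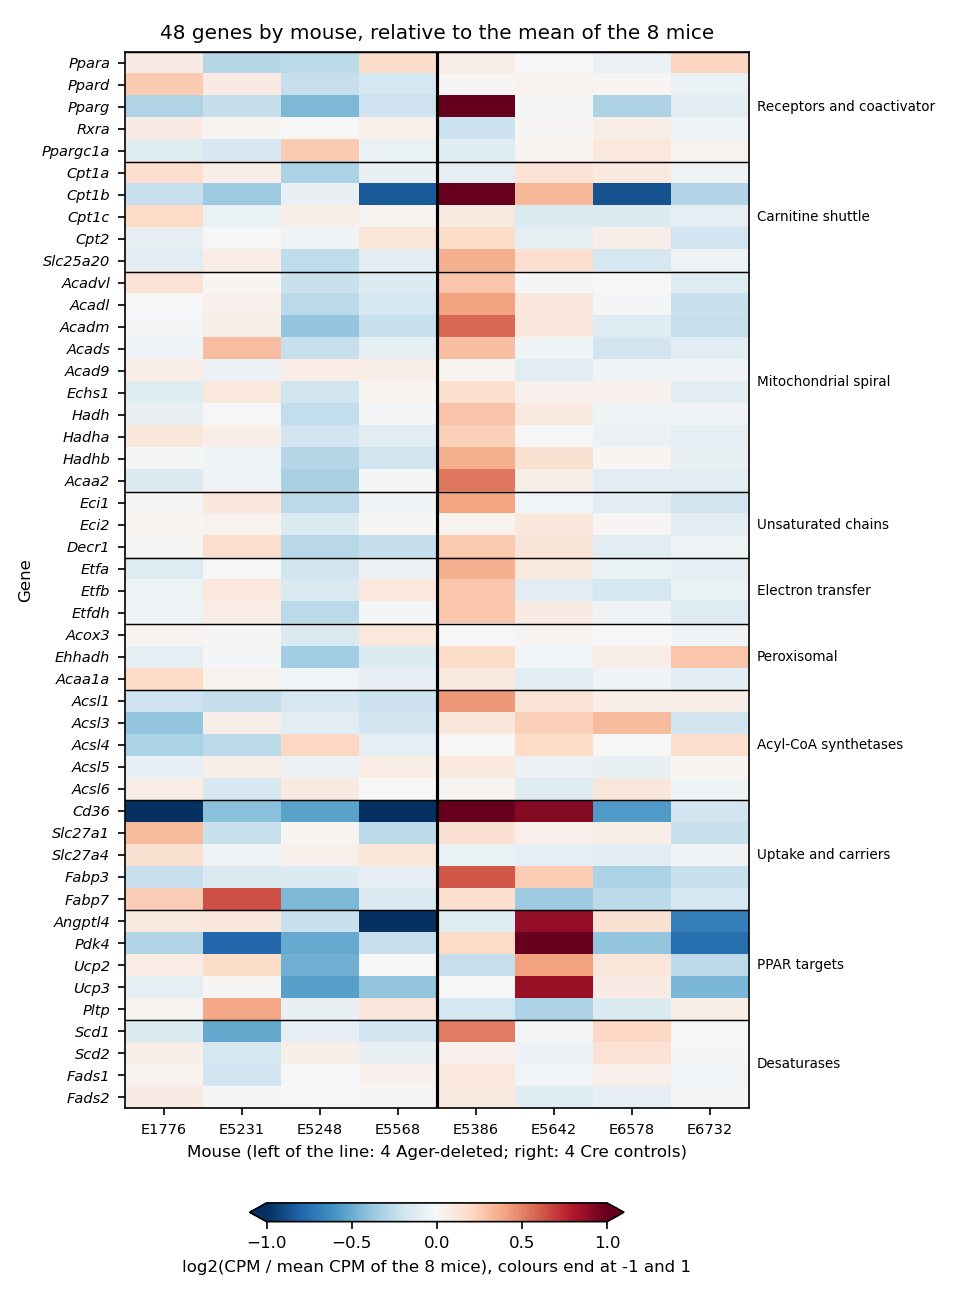
Heat map of the 48 genes in the 8 mice, as log2 of CPM over the mean CPM of the 8 mice, grouped by role. Red marks values above the mean; E5386 is the highest mouse for 24 of the 48 genes and E5248 the lowest for 23.

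**Figure D4:**
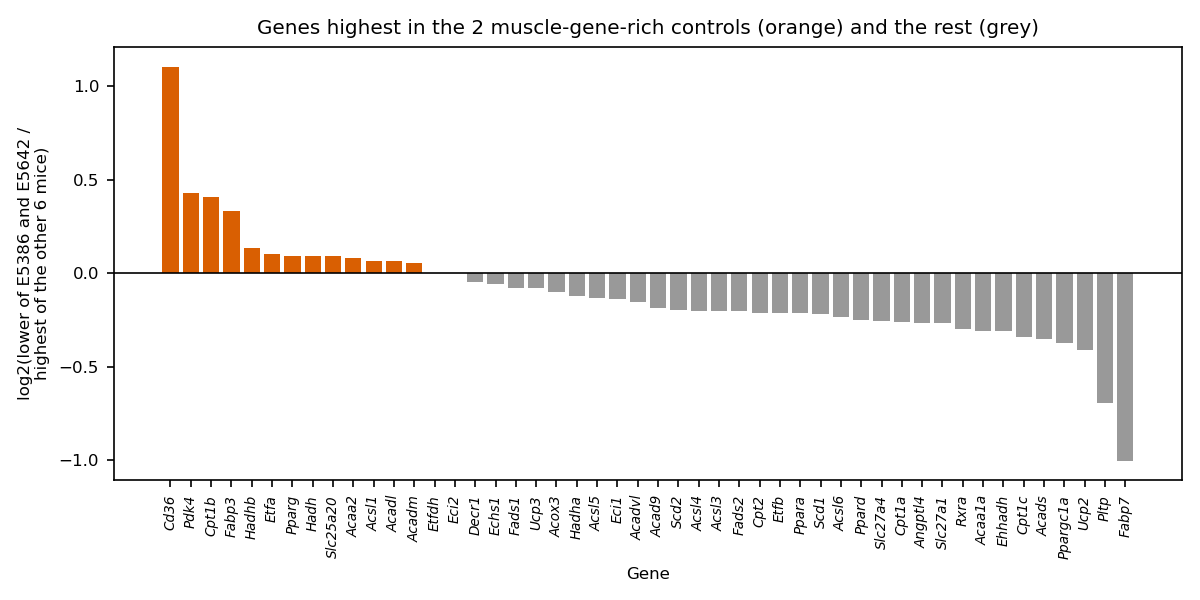
Bars give, for each gene, log2 of the ratio of the lower of E5386 and E5642 to the highest of the other 6 mice, in CPM. The 15 genes with bars above 0 follow the muscle-gene-rich mice (*Etfdh* and *Eci2* barely), and *Cd36*, with a ratio of 2.15, is the one past 1.5.

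Among the receptors, *Pparg*, the regulator of fat cell formation, was at 1.60, 1.67, 1.44 and 1.71 CPM in *Ager*-deleted mice and at 3.97, 1.95, 1.59 and 1.82 CPM in the controls, each in the order of mice given at the start. Control E5386 alone stood at 2.04 times the second highest mouse, and E6578 lay among the *Ager*-deleted mice. A log2 fold change of 0.54 (SE 0.27) came with adjusted p = 1 (edgeR, exact test) and was 0.16 without E5386. *Ppara*, the receptor that drives oxidation in liver, was at 3.86, 2.99, 3.02 and 4.14 CPM and at 3.83, 3.64, 3.48 and 4.23 CPM, and *Ppard*, the widely expressed receptor, at 49.5, 43.7, 35.1 and 36.4 CPM and at 41.6, 42.2, 41.8 and 39.3 CPM, in that order. The genotypes overlapped for both, with log2 fold changes of 0.12 (SE 0.15) and 0.0017 (SE 0.10), the second of which was below 0 with upper quartile scaling (-0.0015) or library size alone (-0.023). The partner receptor *Rxra* and the coactivator *Ppargc1a* had log2 fold changes of -0.08 (SE 0.07) and 0.03 (SE 0.10).

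*Cd36*, the fatty acid translocase of the plasma membrane, had the largest difference of the 48. It was at 3.91, 8.46, 7.82 and 5.63 CPM in *Ager*-deleted mice and at 25.9, 21.4, 7.64 and 9.95 CPM in the controls. Controls E5386 and E5642 were far above the rest, E6732 was slightly above every *Ager*-deleted mouse, and E6578 lay within their range. The genotype means were 6.46 ± 2.08 CPM for *Ager*-deleted mice and 16.2 ± 8.82 CPM for controls (SD, n = 4 each). The log2 fold change was 1.33 (SE 0.38), and the adjusted p in edgeR was 0.183 by the exact test, 0.705 by the quasi-likelihood test and 0.0253 by the exact test when common and tagwise dispersions were used. Without the muscle-gene-rich mice it was 0.46, with an unadjusted p of 0.124 in the exact test. When single mice were dropped, the adjusted p of *Cd36* in edgeR's exact test ran from 0.00335 to 0.848. It was under 0.05 only without E6578 (0.00335) or E6732 (0.0314), the controls with the lowest *Cd36*. Those fits called 98 and 89 genes in all, against 14 with every mouse.

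The *Cd36* gene lies on the reverse strand of chromosome 5 at chr5:17781690-17888801 (GRCm38, the assembly of mm10). Because the data put *Cd36* at the head of the 48 genes, the 250 bases before the one start that the promoter table lists for it are shown, at chr5:17835897-17836146 on the reverse strand, within the gene body and outside its exons (RefSeq, GRCm38.p6). Capitals mark the nuclear receptor half-site AGGTCA, here on the opposite strand at 228 bases before the start.
Cd36: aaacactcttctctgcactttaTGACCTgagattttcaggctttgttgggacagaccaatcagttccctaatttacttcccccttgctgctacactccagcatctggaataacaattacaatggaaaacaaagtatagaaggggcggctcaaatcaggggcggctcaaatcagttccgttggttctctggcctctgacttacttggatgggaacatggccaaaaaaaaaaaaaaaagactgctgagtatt

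Other uptake and carrier genes differed less. *Fabp3* was at 9.70 to 10.8 CPM in *Ager*-deleted mice and at 17.5, 13.6, 9.13 and 9.75 CPM in the controls. Controls E5386 and E5642 lay above the *Ager*-deleted range, E6732 within it and E6578 below it. *Fabp7* had a log2 fold change of -0.28 (SE 0.21) and ranged from 65.8 to 140 CPM among the *Ager*-deleted mice alone. The transporters *Slc27a1* and *Slc27a4* had log2 fold changes of 0.04 (SE 0.13) and -0.15 (SE 0.06), and 3 of 4 controls were below every *Ager*-deleted mouse for *Slc27a4*.

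*Acsl1*, the acyl-CoA synthetase that prevails in muscle, fat and liver, was at 44.8, 43.8, 45.9 and 44.3 CPM in *Ager*-deleted mice and at 69.5, 56.5, 53.9 and 53.9 CPM in the controls. The 4 controls all lay above the 4 *Ager*-deleted mice. The log2 fold change was 0.39 (SE 0.08), and the adjusted p was 0.103 by edgeR's exact test, 0.705 by edgeR's quasi-likelihood test and 0.0359 by DESeq2. Without the muscle-gene-rich mice it was 0.28, with an unadjusted p of 0.0078 and an adjusted p of 0.662 (edgeR, exact test). When single mice were dropped, the adjusted p of *Acsl1* in that test ran from 0.0458 to 0.562. It was under 0.05 only without control E6578 (0.0482) or E6732 (0.0458), where 98 and 89 genes were called in all. Such an order, with every control above every *Ager*-deleted mouse, was seen for 2 of the 48 genes, *Acsl1* and *Scd1*, against 1.91% of all genes tested. The reverse order was seen for 0 of the 48, against 1.97%. With library size alone *Acsl1* was the only one, against 1.09% of all genes. The other synthetase genes had log2 fold changes of 0.28 (SE 0.12) for *Acsl3*, 0.20 (SE 0.11) for *Acsl4*, 0.00042 (SE 0.06) for *Acsl5* and -0.01 (SE 0.08) for *Acsl6*, the isoform of nervous tissue. For *Acsl3*, 3 of 4 controls lay above every *Ager*-deleted mouse.

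The *Acsl1* gene lies on the forward strand of chromosome 8 at chr8:46471037-46536051 (GRCm38), and 1039 of its 10483 exon bases lie opposite exons of *Gm45244*. The 250 bases before its second listed start are shown as those of a gene whose genotypes did not overlap, at chr8:46490716-46490965 on the forward strand, within the gene body and outside exons (RefSeq, GRCm38.p6). Capitals mark the E-box CAGCTG, at 58 bases before the start. The 250 bases before the first listed start, at chr8:46470787-46471036, hold neither CAGCTG nor AGGTCA.
Acsl1: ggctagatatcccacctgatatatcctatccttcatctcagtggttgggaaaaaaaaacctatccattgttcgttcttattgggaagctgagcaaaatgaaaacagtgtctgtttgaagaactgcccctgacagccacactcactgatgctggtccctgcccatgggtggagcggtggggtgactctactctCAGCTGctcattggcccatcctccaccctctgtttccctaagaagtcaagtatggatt

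Among the genes grouped as the carnitine shuttle, the 3 *Cpt1* isoforms had different patterns. *Cpt1a*, the liver and glial isoform, was at 99.0, 91.7, 70.5 and 83.5 CPM in *Ager*-deleted mice and at 82.7, 96.6, 94.0 and 85.6 CPM in the controls, a log2 fold change of 0.06 (SE 0.10). *Cpt1c*, the neuronal isoform, was at 62.9, 52.3, 57.4 and 55.9 CPM and at 58.3, 49.7, 49.9 and 51.5 CPM, a log2 fold change of -0.13 (SE 0.08). The genotypes overlapped for both, and 3 of 4 controls were below every *Ager*-deleted mouse for *Cpt1c*. *Cpt1b*, the muscle and brown fat isoform, was at 0.356, 0.323, 0.395 and 0.233 CPM in *Ager*-deleted mice and at 0.930, 0.525, 0.228 and 0.340 CPM in the controls. Its log2 fold change of 0.63 (SE 0.41) came with between 7 and 34 counts per mouse and was -0.16 without the muscle-gene-rich mice. *Cpt2* and the carnitine carrier *Slc25a20* had log2 fold changes of -0.01 (SE 0.09) and 0.18 (SE 0.12).

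The 10 genes of the mitochondrial spiral, which are the acyl-CoA dehydrogenases, the hydratase, the hydroxyacyl-CoA dehydrogenases, the trifunctional protein and the thiolase, had log2 fold changes between -0.07 and 0.26, 9 of them above 0. In 8 of these 10 E5386 was the highest mouse, in 9 of 10 E5248 was the lowest, and in 10 of 10 E5386 was above E5642. *Hadhb*, the β subunit of the trifunctional protein, had the smallest p of the group. It was at 72.9, 72.0, 60.6 and 64.4 CPM in *Ager*-deleted mice and at 94.6, 82.3, 75.0 and 70.3 CPM in the controls, so that 3 of 4 controls lay above every *Ager*-deleted mouse. Its log2 fold change of 0.26 (SE 0.10) had an unadjusted p of 0.0282 and an adjusted p of 1 (edgeR, exact test), and was 0.11 without the muscle-gene-rich mice. *Hadha*, the α subunit, starts 85 bases away on the other strand of chromosome 5 and had a log2 fold change of 0.05 (SE 0.09). *Acadm*, the medium-chain dehydrogenase, was at 41.7 to 56.8 CPM in *Ager*-deleted mice and at 81.0, 58.9, 50.1 and 46.3 CPM in the controls, where only the muscle-gene-rich mice were above the *Ager*-deleted range.

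The auxiliary enzymes for unsaturated chains and the electron carriers resembled the spiral in their order of mice. *Decr1*, the dienoyl-CoA reductase, was at 52.3, 58.5, 42.7 and 43.8 CPM in *Ager*-deleted mice and at 61.9, 56.6, 48.1 and 50.0 CPM in the controls, a log2 fold change of 0.14 (SE 0.12) with overlapping genotypes. *Etfa*, a subunit of the electron transfer flavoprotein, was at 45.5, 49.5, 43.1 and 47.7 CPM and at 63.6, 53.1, 47.5 and 46.8 CPM, a log2 fold change of 0.18 (SE 0.10). Only E5386 and E5642 were above the *Ager*-deleted range of *Etfa*. All 3 electron transfer genes were highest in E5386 and 2 were lowest in E5248, with *Etfb* lowest in E6578. All 3 genes for unsaturated chains were lowest in E5248 and 2 were highest in E5386, with *Eci2* highest in E5642.

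Of the peroxisomal genes, *Ehhadh*, the bifunctional enzyme and a classical PPARα target of liver, was at 7.37, 7.84, 6.21 and 7.16 CPM in *Ager*-deleted mice and at 8.97, 7.72, 8.26 and 9.58 CPM in the controls. Only E5642 lay within the *Ager*-deleted range, and E6732, the mouse with liver genes, was highest. On the log2 scale the fold change was 0.27 (SE 0.11), with adjusted p = 1 (edgeR, exact test), and it was 0.22 without E6732. Without the muscle-gene-rich mice it was 0.33, and *Ehhadh*, *Acsl1* and *Scd1* then had both controls above all 4 *Ager*-deleted mice, as 6.41% of all genes did. The controls left there were E6578 and E6732, so the mouse with liver genes stays in for all of these genes. What part liver content has was not tested. *Acox3* and the thiolase *Acaa1a*, which has a near copy in *Acaa1b*, had log2 fold changes of -0.0038 (SE 0.06) and -0.07 (SE 0.07).

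The 5 genes grouped here as PPAR targets, *Pdk4*, *Angptl4*, *Ucp2*, *Ucp3* and *Pltp*, did not share the order of the oxidation enzymes. Of these 5, 4 were highest in E5642. The grouping does not hold every PPAR target of the list. *Ehhadh*, placed with the peroxisomal genes, was highest in E6732. *Pdk4*, the kinase that turns off pyruvate dehydrogenase when fat is burned, was at 42.2, 30.0, 36.5 and 44.2 CPM in *Ager*-deleted mice and at 59.5, 132, 39.5 and 30.7 CPM in the controls. E5642 was at 2.22 times the second highest mouse, E5386, and the other 2 controls lay within the *Ager*-deleted range. Mean levels were 38.2 ± 6.37 CPM for *Ager*-deleted mice and 65.4 ± 45.8 CPM for controls (SD, n = 4 each), and the log2 fold change of 0.77 (SE 0.38) was 0.19 without E5642 and -0.12 without both muscle-gene-rich mice. *Angptl4*, the inhibitor of lipoprotein lipase, was at 8.94 to 19.5 CPM in *Ager*-deleted mice and at 16.6, 33.1, 19.9 and 11.2 CPM in the controls. *Ucp3*, the uncoupling protein of muscle and brown fat, was at 6.35 to 9.35 CPM in *Ager*-deleted mice and at 9.24, 16.9, 9.78 and 6.76 CPM in the controls. For both, E5642 stood clear of all other mice while E5386 did not. *Pltp*, the phospholipid transfer protein, went the other way, at 66.7, 85.7, 62.0 and 70.8 CPM against 57.8, 52.9, 59.5 and 68.0 CPM, with 3 of 4 controls below every *Ager*-deleted mouse. Its log2 fold change of -0.26 (SE 0.11) had an unadjusted p of 0.0381 and an adjusted p of 1 (edgeR, exact test).

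**Figure D5:**
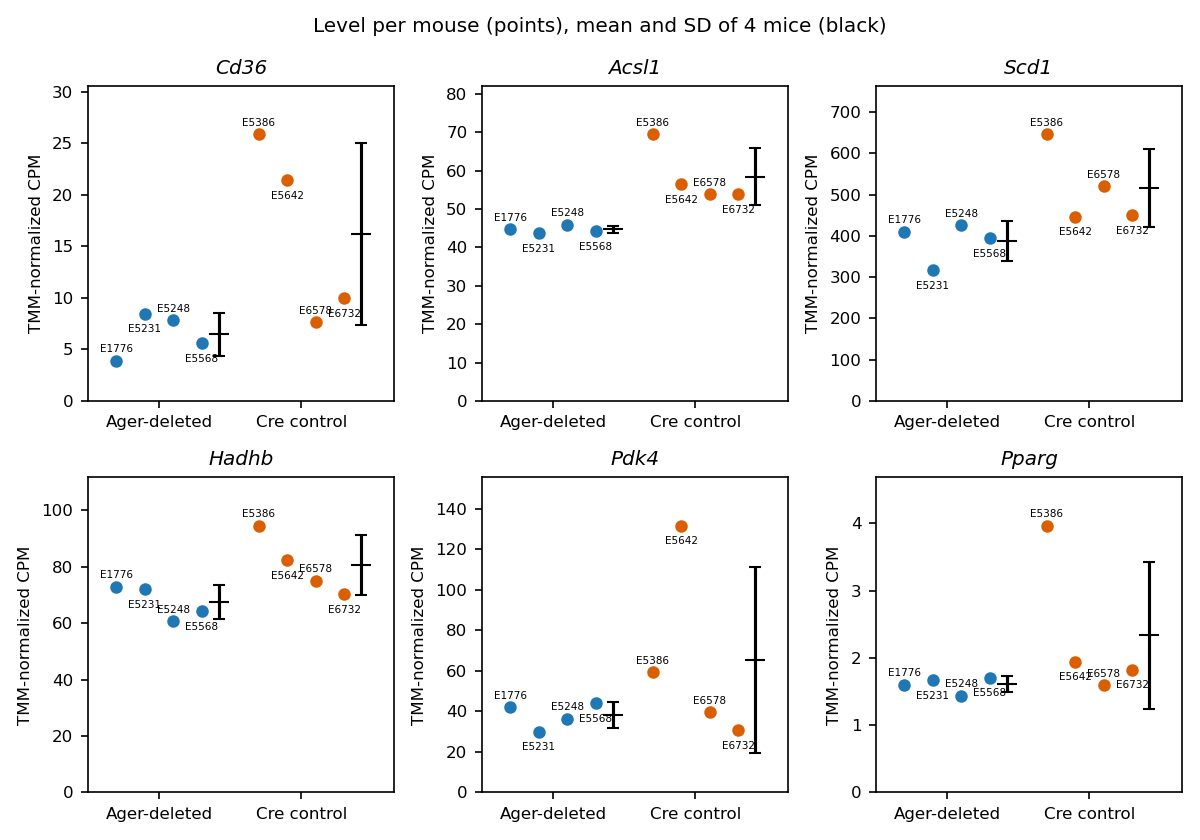
CPM per mouse of 6 of the genes in *Ager*-deleted mice and Cre controls, each point a mouse with its ID and bars the mean ± SD (n = 4). *Acsl1* and *Scd1* are the 2 genes whose genotypes do not overlap.

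The promoter sequences of 40 of the 48 genes were listed, with 48 starts. AGGTCA, the half-site of many nuclear receptors, was found on either strand in the 250 bases before 12 of these starts (25%), against 14% of 32851 starts of all genes. The direct repeat of half-sites spaced by 1 base that PPAR and RXR bind, searched as AGGTCANAGGTCA, was found at 0 of them and at 0.0335% of all starts. The nuclear receptor motif TCAAGGTCA, which contains AGGTCA, was at 2.08% of the starts, before *Acsl6* only, and at 0.387% of all. CAGCTG was at 18.8% and 13%. *Ucp3* is shown for its E5642-led pattern and because it holds AGGTCA more than once. *Pdk4* and *Ucp2*, also highest in E5642, hold no AGGTCA in their 250 bases. *Rxra* and *Acsl6*, not highest in E5642, also hold AGGTCA more than once before a start. Whether the motif goes with the order of mice was not tested. Its 250 bases lie at chr7:100472741-100472990 on the forward strand (RefSeq, GRCm38.p6), with AGGTCA at 149 and 44 and CAGCTG at 40 bases before the start, the last overlapping the second AGGTCA, all in capitals.
Ucp3: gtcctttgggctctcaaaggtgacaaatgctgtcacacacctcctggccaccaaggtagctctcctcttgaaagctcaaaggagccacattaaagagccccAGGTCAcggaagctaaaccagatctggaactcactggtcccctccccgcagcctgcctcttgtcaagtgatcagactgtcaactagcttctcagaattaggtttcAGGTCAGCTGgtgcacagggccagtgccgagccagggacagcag

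*Scd1*, which makes monounsaturated fatty acids, lies on the reverse strand of chromosome 19 at chr19:44394455-44407879 (GRCm38). It was at 410, 317, 426 and 395 CPM in *Ager*-deleted mice and at 647, 447, 520 and 450 CPM in the controls. All controls were above all *Ager*-deleted mice, though the highest *Ager*-deleted mouse and the lowest control were close. It differed by a log2 fold change of 0.42 (SE 0.13), with an unadjusted p of 0.00433 and an adjusted p of 0.516 (edgeR, exact test), and it was 0.33 without the muscle-gene-rich mice. *Scd2*, *Fads1* and *Fads2* had log2 fold changes of 0.06 (SE 0.10), 0.05 (SE 0.07) and -0.05 (SE 0.06).

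Among the other genes of these pathways, 107 of 126 listed genes were tested. Of these, 68 (63.6%) were above and 39 below 0 in log2 fold change, with a median of 0.02. Over all genes tested 48.01% were above 0, with a median of -0.01. In edgeR's exact test 0 of the 107 passed an adjusted p under 0.05. At an unadjusted p under 0.05, 8 passed, all higher in controls, against 4.26% of all genes in either direction. With common and tagwise dispersions 2 passed, both higher in controls, against 0.385% of all genes called as higher. They were the fat cell fatty acid binding protein gene *Fabp4* and the apolipoprotein gene *Apoa1*. *Fabp4* was at 109 CPM in E5386 and *Apoa1* at 39.8 CPM in E6732, the mice with adipocyte and liver genes, and both also stand in those marker lists. Of the 107, 10 followed the muscle-gene-rich mice, against 3.08% of all genes tested. *Fabp4* and the lipid droplet protein gene *Plin5* did so at 1.5 or more, against 0.493% of all genes. The genotypes did not overlap for 5 of the 107, with controls above for *Acadsb*, *Abcd3*, *Oxct1* and *Acbd5* and below for *Slc27a3*, at log2 fold changes of 0.13, 0.09, 0.13, 0.12 and -0.25, beside the shares of 1.91% above and 1.97% below among all genes.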

How the data were processed

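Lumbar spinal cord RNA of 8 mice was prepared with a stranded polyA kit and sequenced on a NovaSeq instrument. The authors trimmed reads, aligned them to mm10 with STAR 2.7.3a and summed read pairs per gene of GENCODE M25 with featureCounts (Subread 1.6.3); the strand setting is not given in the sources used here. The authors deposited raw counts and a table of log2 TMM-normalized CPM from edgeR 3.26.8, as the submitters' processing notes list it. The deposited log2 values served only as a check: recomputed from the counts, they differed by at most 4.78e-06 over 19470 genes. Every test used the deposited counts, with mice grouped by the genotype in their labels and treated as independent.

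The filter was filterByExpr with a minimum of 10 counts, and after TMM scaling the genes were tested in edgeR 4.0.16 (R 4.3.3) by the exact test with estimateDisp, two-sided, 4 against 4 mice, with Benjamini-Hochberg adjustment over all 19470 genes. Standard errors came from the quasi-likelihood fit. DESeq2 1.42.0, limma-voom (limma 3.58.1), common and tagwise dispersions, other scalings and filters, the removal of muscle genes, a muscle score covariate and left-out mice were alternatives. The fits were tested on simulated data. Total counts were 31148047 to 40324897 per mouse; the floor of 3 counts covers counting error only.

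The 48 genes, the other lists and the naming rule were chosen with earlier results of these data known. Given with every mouse's value were genes called by a test, with genotypes apart, led by 1 mouse at 2 times the next or by the muscle-gene-rich mice at 1.5 or more, the CPT1 and PPAR isoforms, and the smallest p of each role; *Acadm*, *Angptl4*, *Fabp3* and *Ucp3* were added after their values were seen. Exon lengths and positions are from GENCODE M21 on GRCm38 and promoters from RefSeq on GRCm38.p6.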

Additional observations from a re-analysis of the deposited data

Results flagged for a closer look

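A test for single mice far from the rest of their genotype was run on 98 groups of 4 mice, of which chance flags about 1 in 20. It picked out 2 values. *Acad9*, a complex I assembly factor of the acyl-CoA dehydrogenase family, was at 37.8 CPM in the *Ager*-deleted mouse E5231, with the nearest of the other 3 at 41.3 CPM. *Eci2*, an enoyl-CoA isomerase, was at 43.7 CPM in the *Ager*-deleted mouse E5248, with the nearest at 48.3 CPM.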

How the results depend on the processing

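None of the 48 genes passed edgeR's exact test with any other scaling, filter or removal of muscle genes, by the quasi-likelihood test, by limma-voom, with the muscle score as a covariate or without E5386 and E5642. Common and tagwise dispersions and DESeq2 each called 1, and leaving out each mouse in turn called between 0 and 2. Over all genes the count of calls was 14, of which 12 were higher in controls. It was 1 with the quasi-likelihood test, with limma-voom and with the covariate (0 higher in each), 78 with common and tagwise dispersions (75 higher), 25 with DESeq2 (23), 8 with a filter at 1 CPM (6), 9 with muscle genes removed (7), 67 without E5386 and E5642 (64), and between 3 and 98 (2 to 96 higher) with a mouse left out. Of the wider lists 2 genes were called with common and tagwise dispersions, 1 with every gene that had a count, 3 without E5386 and E5642, and between 0 and 3 with a mouse left out. The median over the 48 genes was -0.0107 with the covariate (21 genes higher) and -0.0144 without E5386 and E5642 (19 higher), and between 0.0519 and 0.134 with a mouse left out. The covariate and the removal of E5386 and E5642 are not separate tests, because the muscle score mostly marks these mice. Controls lay above all *Ager*-deleted mice for 1 gene with library size alone (1.09% of all genes) and for 2 to 4 with a mouse left out (2.53% to 5.91% of all genes), and below for 2 without E5386 and E5642 (6.48% of all genes) and for 0 to 2 with a mouse left out (2.53% to 5.16%). The number that followed the muscle-gene-rich mice was 7 with library size alone. The log2 fold change of *Ager* was between 0.69 and 0.94 with a mouse left out. Its adjusted p was under 0.05 only without E5386, at 0.0442 (edgeR, exact test), and was 0.293 or more without any other mouse.

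*Ppard* turned below 0 with upper quartile scaling (-0.0015), library size alone (-0.023), every gene with a count (-0.0018), the covariate (-0.010) and without E5386 and E5642 (-0.016), and lay between -0.068 and 0.10 with a mouse left out. *Cpt1b* turned to -0.14 with the covariate and -0.16 without E5386 and E5642, and *Pdk4* to -0.14 and -0.12. *Decr1* was -0.00051 without E5386 and E5642, and *Cpt1a* lay between -0.028 and 0.13 with a mouse left out. The cause was not tested. No paired analysis was possible because the labels give mouse IDs and no replicate numbers shared between genotypes. The depth of at least 31148047 counts limits *Cpt1b*, with 7 to 34 counts, most.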
